A study of Mus musculus with 4 samples.

Results

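The genes described here present antigens to T cells or prepare the peptides to be presented: the MHC class I and class II chains, their loading machinery, their 2 transactivators and the class I-like molecules CD1d, MR1 and the NKG2D ligands. They were chosen by name alone, as probe sets annotated to exactly 1 gene whose symbol begins with H2-, Tapbp, Cd1d or Raet1 or is B2m, Tap1, Tap2, Erap1, Ciita, Nlrc5, Cd74, Mr1 or Ulbp1. The rule took 70 of the 34945 probe sets that name 1 gene, and these stood for 36 of 18193 genes. Of the 36 genes, 22 had a probe set called Present on at least 2 of the 4 arrays and could be tested, among 10350 such genes in all. A further 16 probe sets name several genes of which at least 1 fits the rule, and they are described separately. These name 22 genes of the rule, 13 of which have no probe set of their own.

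RNA from non-tumorous liver was measured on Affymetrix Mouse Genome 430 2.0 arrays, 2 for G9aΔHep mice and 2 for wild-type (WT) mice. G9aΔHep mice came from a cross of G9a flox/flox mice with Alb-Cre mice. The genotype label was G9aKO for G9aΔHep mice and WT for WT mice. All were male, backcrossed to C57BL/6, injected with diethylnitrosamine (25 mg/kg) when 15 days old, treated repeatedly with CCl4 (0.5 ml/kg, 22 times) and sampled at 30 weeks. Alb-Cre is driven by the albumin promoter and acts in hepatocytes, so Kupffer cells, endothelial cells and lymphocytes of the same tissue keep G9a, the histone H3 lysine methyltransferase encoded by Ehmt2. No label ties an array to a batch, a date or a partner in the other group, and none says whether the 2 RNA samples of a group came from separate mice, so p-values measure the spread between these samples only.

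MHC class I molecules pair a heavy chain with β2-microglobulin and a short peptide. The peptides are cut in the cytosol by proteasomes, pumped into the endoplasmic reticulum by the TAP transporter, trimmed there and loaded with the help of tapasin. CD8 T cells read class I on nearly every nucleated cell, hepatocytes included. MHC class II molecules carry peptides from endosomes to CD4 T cells, and in liver they are made mostly by Kupffer cells, dendritic cells and B cells. In the mouse both families lie in the H2 complex on chromosome 17, and Ehmt2 lies inside the same complex.

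Ehmt2 gave signals of 174.1 and 163.7 in G9aΔHep liver, both called Absent, against 640.4 and 492.5 in WT liver, both called Present. This is at least 3.33-fold lower in G9aΔHep liver (log2 fold change −1.73, SE 0.23, limma adjusted p = 0.063). The genotypes were apart, although it was not determined whether this probe set lies in the deleted exons, and a second one for Ehmt2 had no Present call. Present calls covered 43.9% and 42.7% of probe sets on the G9aΔHep arrays and 41.8% and 41.3% on the WT arrays. Arrays of 1 genotype correlated at 0.970 to 0.971 and arrays of different genotypes at 0.959 to 0.967 (Pearson's r over the log2 signals of 17158 probe sets, a description across probe sets). Of 10 hepatocyte marker genes, 8 were tested, and their summed signal was 463505 and 408393 in G9aΔHep liver against 455624 and 434698 in WT liver.

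One antigen presentation gene passed the threshold. H2-Q10 was lower in G9aΔHep liver, and no member was higher at an adjusted p under 0.05 (limma, Benjamini-Hochberg over 10350 genes). Across all genes tested 7 were lower and 33 higher, which is 0.0676% and 0.319%. At an unadjusted p under 0.05 there were 4 members lower (H2-Q10, Tapbp, H2-Ke6 and H2-K1) and 0 higher, where 4.1% of all genes were lower and 5.92% higher. The G9aΔHep and WT signals did not overlap for 6 lower members and 1 higher member (Mr1) of 22, where 19.3% of all genes were lower and 22.3% higher in this sense. The median log2 fold change of the 22 members was −0.03, and that of all genes was 0.02. With 2 arrays against 2, an exact two-sided permutation test of a single gene cannot go below p = 0.33.

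**Figure D1:**
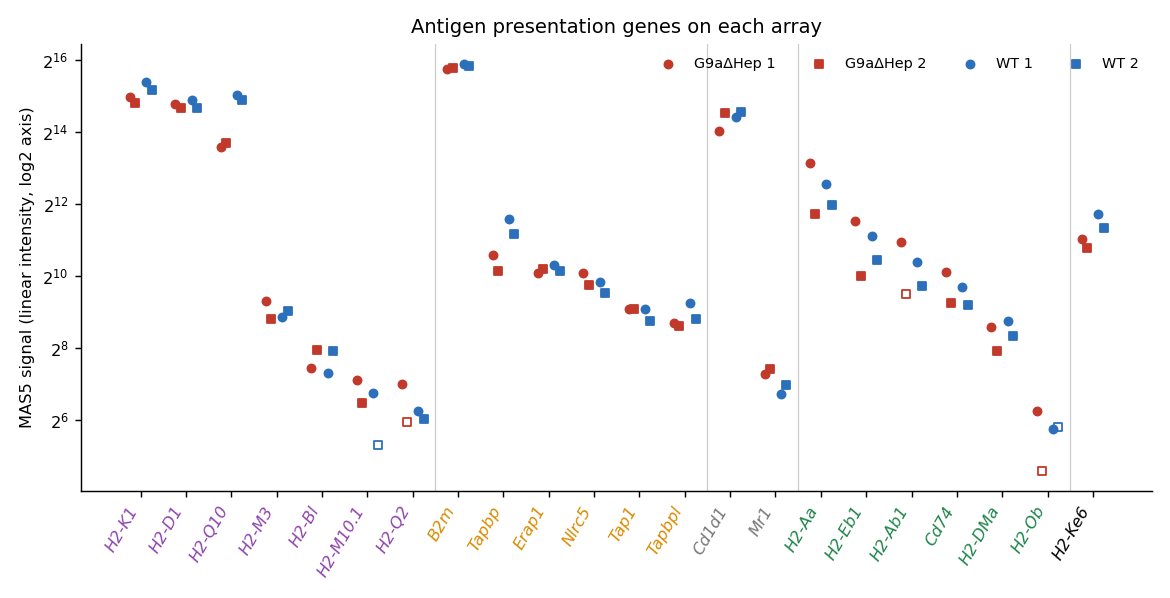
MAS5 signal (linear intensity on a log2 axis) of the 22 tested genes of the rule, H2-Ke6 included, on each array. G9aΔHep is in red and WT in blue, and filled symbols were called Present and open symbols were not. H2-Q10 and Tapbp show both G9aΔHep arrays below both WT arrays, and the class II genes from H2-Aa to Cd74 show G9aΔHep array 1 above the other 3.

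The classical class I heavy chains come first. H2-K1 and H2-D1 encode the K and D molecules that present peptides to CD8 T cells, and H2-Q10 encodes a class Ib molecule that is secreted, mainly by the liver. The promoter of H2-Q10 is shown as that of the called gene, and those of H2-K1, H2-D1 and H2-Q7, another Qa gene of the same cluster, are shown as related upstream sequences. Each is the 250 bases before the RefSeq start (build GRCm38.p6), 5′ to 3′ on the gene's strand, and for H2-K1, which has 2 annotated starts, the more downstream one was taken. Capitals mark matches on either strand to 4 motifs: GGGGATTCC (from the κB site of class I enhancers), TTTCACTTC (part of the interferon-stimulated response element), CCAAT (also read as ATTGG) and TATAAA. No match overlaps another.
H2-Q10 promoter, chr17:35469839-35470088, plus strand: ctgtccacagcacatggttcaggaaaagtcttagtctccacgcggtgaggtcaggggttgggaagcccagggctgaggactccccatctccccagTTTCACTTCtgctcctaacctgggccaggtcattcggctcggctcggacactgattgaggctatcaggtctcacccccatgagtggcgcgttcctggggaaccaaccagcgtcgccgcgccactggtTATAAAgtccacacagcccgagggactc
H2-K1 promoter, chr17:34000334-34000583, minus strand: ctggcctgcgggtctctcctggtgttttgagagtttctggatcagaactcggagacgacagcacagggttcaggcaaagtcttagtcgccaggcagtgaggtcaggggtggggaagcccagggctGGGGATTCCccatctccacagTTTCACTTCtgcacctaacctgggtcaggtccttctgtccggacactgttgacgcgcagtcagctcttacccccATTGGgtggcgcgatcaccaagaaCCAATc
H2-D1 promoter, chr17:35262844-35263093, plus strand: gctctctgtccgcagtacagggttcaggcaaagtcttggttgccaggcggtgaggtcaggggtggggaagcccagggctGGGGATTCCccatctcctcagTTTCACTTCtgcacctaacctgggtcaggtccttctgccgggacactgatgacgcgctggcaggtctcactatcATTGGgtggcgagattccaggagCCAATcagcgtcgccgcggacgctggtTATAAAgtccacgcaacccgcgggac
H2-Q7 promoter, chr17:35438905-35439154, plus strand: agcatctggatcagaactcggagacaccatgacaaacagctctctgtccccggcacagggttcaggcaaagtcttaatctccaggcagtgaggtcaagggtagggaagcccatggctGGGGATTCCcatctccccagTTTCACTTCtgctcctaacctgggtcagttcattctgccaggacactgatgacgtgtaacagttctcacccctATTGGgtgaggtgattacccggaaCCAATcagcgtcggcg

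GGGGATTCC was found in the windows of H2-K1, H2-D1 and H2-Q7 and not in that of H2-Q10. It occurs in 70 of 32851 mouse promoter windows of this length, or 0.213%. The H2-K1 letters there read GGGGATTCCCC and begin 21 bases before TTTCACTTC. At the same distance H2-Q10 reads GAGGACTCCCC, which differs from H2-K1 by G2A and T6C, positions counted from 1 at the 5′ end of the H2-K1 letters. Of the other genes of the rule with a promoter, H2-Q6 also held GGGGATTCC. H2-Q4, H2-Q2, H2-M3, H2-T23 and B2m were among those that did not, so its lack is not particular to H2-Q10. TTTCACTTC, found in 0.402% of windows, is present in all 4, where it lies 155 to 147 bases before the start of H2-Q10. CCAAT was found in the H2-K1, H2-D1 and H2-Q7 windows and not in that of H2-Q10, and occurs in 33.8% of windows, whereas TATAAA, in 12.4%, was found for H2-Q10 and H2-D1. The windows start from annotated starts and are not aligned with each other, and a match or its lack describes these letters only.

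H2-Q10 gave signals of 12388 and 13342 in G9aΔHep liver, against 33243 and 30112 in WT liver. Both G9aΔHep arrays were far below both WT arrays. The means were 12865 ± 675 in G9aΔHep liver and 31677 ± 2215 in WT liver (SD, n = 2 each). The log2 fold change was −1.30 (SE 0.10, limma adjusted p = 0.0262), so the WT level was 2.46-fold the G9aΔHep level. By p-value the gene ranked 4 of 10350. The change kept its direction when any 1 array was left out (log2 fold change −1.37 to −1.23), but the adjusted p was then 0.032 without G9aΔHep array 2, 0.0636 without G9aΔHep array 1, 0.119 without WT array 1 and 0.0899 without WT array 2. A fit with no mean-variance trend gave an adjusted p of 0.167 and called no gene on the array.

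H2-K1 gave 32212 and 28779 in G9aΔHep liver against 42736 and 36505 in WT liver. Every G9aΔHep value lay below every WT value, but by a smaller margin than for H2-Q10. The log2 fold change was −0.38 (SE 0.12, unadjusted p = 0.0188), which did not pass after adjustment (adjusted p = 0.384). All 4 detected H2-K1 probe sets were below 0, at −0.40 to −0.08, and in 2 of them the groups overlapped. The IDs of all 4 end in _x_at, like 20 of the 70, the suffix of probe sets whose probes can bind other transcripts, and class I chains are close copies of one another.

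H2-D1 gave 28257 and 26030 in G9aΔHep liver against 30385 and 26017 in WT liver. The groups overlapped and the log2 fold change was −0.05 (SE 0.11, adjusted p = 0.913). Its 7 detected probe sets spread from −0.46 to 0.89, 5 below 0 and 2 above. The highest was a dim probe set with 253.4 and 296.0 in G9aΔHep liver against 130.2 and 168.3 in WT liver (log2 fold change 0.89, unadjusted p = 0.0154, adjusted p = 0.407 over 19842 probe sets). This probe set also ends in _x_at. A probe set shared by H2-K1 and H2-D1 read 9748 and 6821 in G9aΔHep liver against 13446 and 10955 in WT liver, with no overlap (log2 fold change −0.57, unadjusted p = 0.0208, adjusted p = 0.441).

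The other tested class I chains were class Ib genes. H2-M3, whose product presents N-formylated bacterial peptides, gave 632.9 and 449.1 in G9aΔHep liver against 470.7 and 521.5 in WT liver (log2 fold change 0.11, adjusted p = 0.910). The groups overlapped, as they did for H2-Bl, H2-Q2 and H2-M10.1, with log2 fold changes of 0.08, 0.34 and 0.77. H2-M10.1, known from vomeronasal neurons, read 138.4 and 89.8 in G9aΔHep liver against 107.9 and 39.9 in WT liver, the last called Absent. These signals lie below 170.5, the lowest of the 4 arrays' 95% quantiles of Absent probe sets. The 6 class I chain genes with no detected probe set were H2-D4, H2-M9, H2-Q5, H2-T18, H2-T24 and H2-T3. Of the 7 tested class I chains 4 were above 0 and 3 below, with a median log2 fold change of 0.08. The sign of this median was not stable, at −0.10 with no detection filter, −0.052 for genes Present on all 4 arrays, −0.039 over single probe sets and −0.14 without G9aΔHep array 1.

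**Figure D2:**
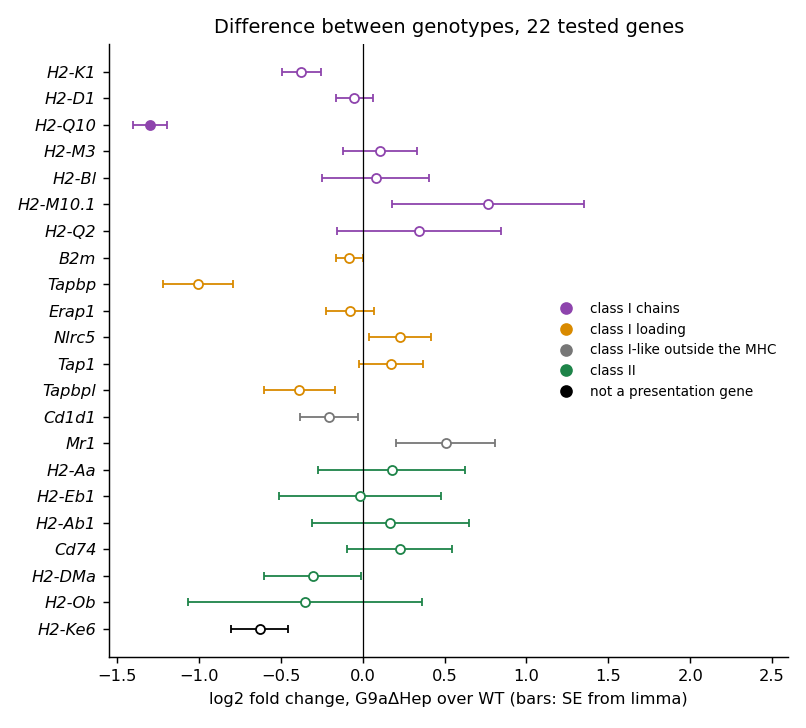
Log2 fold change of each tested gene of the rule, H2-Ke6 included, G9aΔHep over WT (points, with bars for the SE from limma), coloured by role. The filled point has a limma adjusted p under 0.05. H2-Q10 at −1.30 and Tapbp at −1.01 stand lowest, and the class II genes lie between −0.35 and 0.22 with wide bars.

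Most Qa and T region chains were measured only by probe sets that name several genes, which were tested among 19842 probe sets. Of these 0.0504% were lower and 0.232% higher at an adjusted p under 0.05, 3.76% and 5.56% at an unadjusted p under 0.05, and 18.8% and 22.5% by groups that did not overlap. None of the 10 detected probe sets with several genes passed after adjustment (limma), and at an unadjusted p under 0.05 there were 2 higher and 1 lower. Without overlap the probe sets of H2-Q4, H2-Q6 and H2-Q8, of H2-T9, H2-T10 and H2-T22, and of H2-T3 and H2-T18 were higher. So were that of Raet1d and Raet1e and the dimmer one of H2-T23 and H2-T-ps. The probe set of H2-K1 and H2-D1 was lower without overlap. The remaining 6 had at most 1 Present call.

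The probe set of H2-Q4, H2-Q6 and H2-Q8 gave 585.9 and 546.8 in G9aΔHep liver against 287.6 and 232.6 in WT liver. Both G9aΔHep values were above both WT values, the opposite direction to H2-Q10 (log2 fold change 1.13, SE 0.22, unadjusted p = 0.00136, adjusted p = 0.156). A second probe set that names H2-Q6 and H2-Q8 gave 1693 and 1130 in G9aΔHep liver against 1477 and 1390 in WT liver (log2 fold change −0.05). The groups overlapped there, so the pair of probe sets did not move together, and which of the named genes each one reads cannot be told apart. For H2-Q7 and H2-Q9, which encode the Qa-2 antigen, the signals were 4638 and 4775 in G9aΔHep liver against 4702 and 3428 in WT liver (log2 fold change 0.23, adjusted p = 0.717).

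H2-T23 encodes Qa-1, the ligand of CD94/NKG2 receptors on NK cells, and shares its probe sets with H2-T-ps. One of them, Present on all 4 arrays, read 15843 and 13030 in G9aΔHep liver against 14781 and 12312 in WT liver, overlapping groups with a log2 fold change of 0.09 (adjusted p = 0.871). The other read 119.3 and 80.77, the latter Absent, in G9aΔHep liver against 78.55 and 71.32 in WT liver. Its groups did not overlap (log2 fold change 0.39, limma adjusted p = 0.791). All its signals lie below 170.5, the lowest 95% quantile of Absent probe sets on any array. The probe set of H2-T9, H2-T10 and H2-T22, ligands of γδ T cell receptors, read 5309 and 4656 in G9aΔHep liver against 4359 and 3985 in WT liver. G9aΔHep lay above WT without overlap, and the log2 fold change of 0.25 did not pass (adjusted p = 0.597). H2-T3 and H2-T18 together read 180.1 and 168.6 in G9aΔHep liver against 95.8, called Absent, and 119.8 in WT liver (log2 fold change 0.70, adjusted p = 0.551).

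Among the class I loading genes, tapasin had the largest difference. Tapbp encodes tapasin, which bridges TAP and empty class I molecules. Its detected probe set gave 1533 and 1142 in G9aΔHep liver against 3070 and 2300 in WT liver. Both G9aΔHep values were below both WT values (log2 fold change −1.01, SE 0.21, unadjusted p = 0.00318), but the gene did not pass after adjustment (adjusted p = 0.190, and 0.164 to 0.607 when 1 array was left out). Its other probe set was Absent on all 4 arrays. The Tapbp promoter is shown as that of the loading gene with the smallest p, a choice made after its values were seen. Of the 4 motifs it holds only ATTGG, the reverse complement of CCAAT, in 2 places that are in capitals.
Tapbp promoter, chr17:33919228-33919477, plus strand: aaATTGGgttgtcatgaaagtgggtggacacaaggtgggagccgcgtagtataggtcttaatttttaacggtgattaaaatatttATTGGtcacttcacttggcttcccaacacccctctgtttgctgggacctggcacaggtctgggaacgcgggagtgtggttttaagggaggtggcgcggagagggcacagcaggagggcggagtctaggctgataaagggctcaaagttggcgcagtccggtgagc

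The other loading genes differed less. Tapbpl, which encodes the tapasin-related peptide editor TAPBPR, gave 417.8 and 389.8 in G9aΔHep liver against 616.4 and 451.5 in WT liver. Both G9aΔHep values were lower, and the log2 fold change of −0.39 did not pass (adjusted p = 0.621). B2m, the light chain of every class I molecule, gave 55523 and 56343 in G9aΔHep liver against 60390 and 58000 in WT liver. Both were again lower, but the difference was small (log2 fold change −0.08, adjusted p = 0.785).

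Tap1, a subunit of the peptide pump, gave 542.0 and 549.1 in G9aΔHep liver against 544.8 and 430.4 in WT liver (log2 fold change 0.17, adjusted p = 0.807). Erap1, the aminopeptidase that trims peptides in the endoplasmic reticulum, gave 1095 and 1183 in G9aΔHep liver against 1264 and 1140 in WT liver (log2 fold change −0.08, adjusted p = 0.900). Nlrc5, the transactivator of class I genes, gave 1080 and 865.5 in G9aΔHep liver against 913.4 and 746.8 in WT liver (log2 fold change 0.23, adjusted p = 0.737). The groups overlapped for these 3 genes. Tap2, the partner of Tap1, was not Present on any array, with 224.2 and 406.0 in G9aΔHep liver against 254.5 and 255.8 in WT liver. Of the 6 tested loading genes 4 were below 0 and 2 above, with a median log2 fold change of −0.08.

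H2-Ke6 carries an H2 name because it lies in the complex, and encodes a hydroxysteroid dehydrogenase with no role in antigen presentation. It gave 2080 and 1761 in G9aΔHep liver against 3367 and 2605 in WT liver. Both G9aΔHep values were below both WT values (log2 fold change −0.63, SE 0.18, unadjusted p = 0.0113, adjusted p = 0.320).

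The class II genes showed no shift between genotypes beyond the spread of the G9aΔHep arrays. None of the 6 tested genes passed at an adjusted or an unadjusted p under 0.05 (limma), the groups overlapped for all 6, and 3 were above 0 and 3 below, with a median log2 fold change of 0.08. H2-Aa, the α chain of the A molecule, gave 8983 and 3398 in G9aΔHep liver against 5995 and 3990 in WT liver (log2 fold change 0.18, SE 0.45). H2-Ab1, its β chain, gave 1964 and 726.8 in G9aΔHep liver against 1344 and 840.1 in WT liver (log2 fold change 0.17, SE 0.48). In both genes the G9aΔHep arrays were the highest and the lowest of the 4.

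H2-Eb1, the β chain of the E molecule, gave 2945 and 1024 in G9aΔHep liver against 2200 and 1403 in WT liver (log2 fold change −0.02, SE 0.49). Its partner H2-Ea had no Present call at any of its 3 probe sets. C57BL/6 mice carry the b haplotype, in which H2-Ea is known not to be transcribed. Cd74, the invariant chain that guides class II to endosomes, gave 1099 and 606.9 in G9aΔHep liver against 829.1 and 589.1 in WT liver (log2 fold change 0.22, SE 0.32). G9aΔHep array 1 was again the highest.

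The class II peptide editors were detected on fewer arrays, except H2-DMa. H2-DMa, a chain of the DM exchange factor, gave 381.4 and 241.0 in G9aΔHep liver against 435.3 and 323.2 in WT liver (log2 fold change −0.31, adjusted p = 0.772). H2-Ob, a chain of the DM inhibitor DO, gave 76.6 and 24.2 in G9aΔHep liver against 54.0 and 55.88 in WT liver, with 1 Present call in each group. A probe set of H2-DMb1 and H2-DMb2 was Present on G9aΔHep array 1 only, with 265.7 and 75.44 in G9aΔHep liver against 124.7 and 79.64 in WT liver. Ciita, the transactivator of class II genes, was at its brightest probe set Present on 1 WT array only, with 87.68 and 81.06 in G9aΔHep liver against 112.5 and 103.0 in WT liver. H2-DMb2 alone, H2-Eb2 and H2-Oa had no Present call at their brightest probe set.

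Over the 6 tested class II genes the summed signal was 15449 and 6021 in G9aΔHep liver against 10858 and 7201 in WT liver. Markers of the cells that make class II differed between the same arrays. The 17 macrophage and Kupffer cell markers, all tested and all above 0 (7 not overlapping, 1 of them at an unadjusted p under 0.05, 0 after adjustment, limma), summed to 87016 and 55695 in G9aΔHep liver against 41696 and 58402 in WT liver, with a median log2 fold change of 0.50. Over all genes 22.3% were higher without overlap and 5.92% higher at an unadjusted p under 0.05. Among them was Lyz2, the lysozyme of myeloid cells (unadjusted p = 0.0415, adjusted p = 0.480). Lyz2 had 13135 and 8086 in G9aΔHep liver against 4105 and 7611 in WT liver. Cx3cr1, a chemokine receptor of monocytes, had a log2 fold change of 1.77 (adjusted p = 0.532). Its signals were 207.1 and 134.7 (the latter Absent) in G9aΔHep liver against 109.5 and 21.86 (the latter Absent) in WT liver. All but the first lie below 170.5, the lowest 95% quantile of Absent probe sets on any array, so the size of this fold change is uncertain. Of 10 B cell markers 6 were tested, and their sum was 2152 and 693 in G9aΔHep liver against 816 and 779 in WT liver, while Cd79a, Pax5 and Blk were Absent on every array.

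Jchain, the joining chain of secreted immunoglobulin, gave 445.1 and 154.8 in G9aΔHep liver against 163.0 and 127.0 in WT liver (adjusted p = 0.634). Ighm, the immunoglobulin heavy chain of B cells, gave 1130 and 194.0 in G9aΔHep liver against 209.8 and 274.3 in WT liver (adjusted p = 0.719). The groups overlapped for both. By these sums G9aΔHep array 1 had the highest class II, macrophage and B cell signal of the 4 arrays. The B cell markers did not all follow their sum. Cd22, like Ighm and Jchain, was highest on G9aΔHep array 1, and Fcrla on G9aΔHep array 2. Cd79b had 172.7 and 96.06 in G9aΔHep liver against 199.0 and 113.6 in WT liver. Ms4a1 had 114.9 and 113.2 in G9aΔHep liver against 138.3 and 97.52 in WT liver. Both were highest on WT array 1. WT array 1 also had the lowest macrophage sum and the second highest class II sum.

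Of 10 dendritic cell markers only Itgax and Zbtb46 were tested, summing to 340 and 307 in G9aΔHep liver against 208 and 224 in WT liver, and Flt3, Xcr1, Cd209a, Siglech and Ccr7 were Absent on all arrays. Itgax, the integrin chain CD11c, was Present on both G9aΔHep arrays, at 163.1 and 144.6, and Absent on both WT arrays, at 64.0 and 73.41. Its log2 fold change was 1.16 (limma unadjusted p = 0.0154, adjusted p = 0.357). All its signals lie below 170.5, the lowest 95% quantile of Absent probe sets on any array, so the size of this fold change is uncertain. Zbtb46, a dendritic cell transcription factor, was at 0.20 (limma adjusted p = 0.843). The 2 of 12 tested T and NK cell markers summed to 224 and 192 in G9aΔHep liver against 346 and 198 in WT liver, with log2 fold changes of −0.46 for Cd8a and −0.19 for Gzma and overlapping groups.

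The 7 of 8 tested sinusoidal endothelial markers summed to 14026 and 13046 in G9aΔHep liver against 15511 and 12337 in WT liver. Lyve1, a hyaluronan receptor, gave 759.0 and 550.4 in G9aΔHep liver against 1025 and 1639 in WT liver, lower without overlap (log2 fold change −1.004, unadjusted p = 0.0111, adjusted p = 0.320), while Cdh5, a cadherin of endothelial junctions, was at 0.40 (adjusted p = 0.588). Among the hepatocyte markers Cps1, a urea cycle enzyme, gave 51412 and 48136 in G9aΔHep liver against 59553 and 56780 in WT liver (log2 fold change −0.22, unadjusted p = 0.045, adjusted p = 0.494), and Alb, which encodes albumin, was at −0.12 (adjusted p = 0.752). The part of cell content in the class II values was not tested, and in bulk tissue fewer cells of a type and less RNA per cell cannot be told apart.

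**Figure D3:**
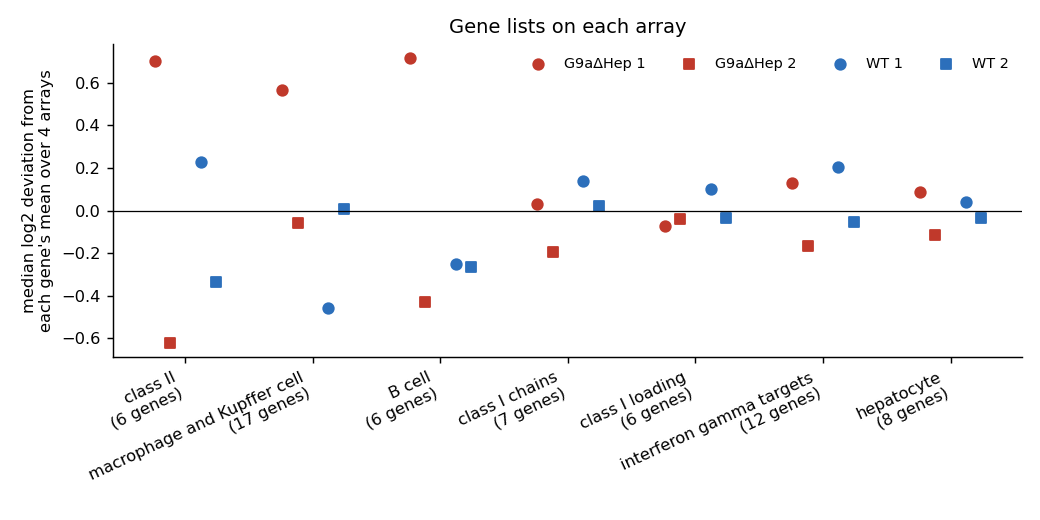
Median over the genes of each list of the log2 deviation from the gene's mean over the 4 arrays, for G9aΔHep (red) and WT (blue) arrays. In the class II list the G9aΔHep arrays lie at 0.70 and −0.62 and the WT arrays at 0.23 and −0.34, so the genotypes overlap, while the arrays lie between −0.07 and 0.10 for class I loading and between −0.11 and 0.09 for hepatocyte genes.

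Of the class I-like molecules outside the complex 2 were tested, and neither passed at an adjusted or an unadjusted p under 0.05 (limma). Mr1, which shows vitamin B metabolites to mucosal-associated invariant T cells, gave 156.2 and 173.0 in G9aΔHep liver against 105.8 and 126.5 in WT liver. It was the only tested member with both G9aΔHep values above both WT values (log2 fold change 0.51, SE 0.30, adjusted p = 0.634). Each of these signals, though called Present, lies below the 95% quantile of Absent probe sets on its array (170.5 to 180.9). The other Mr1 probe set was Absent on all arrays. Cd1d1, which presents lipids to NKT cells, gave 16773 and 23872 in G9aΔHep liver against 21936 and 24284 in WT liver, overlapping groups with a log2 fold change of −0.21 (adjusted p = 0.742) that was 0.049 without G9aΔHep array 1. Cd1d2 and Ulbp1 were Absent on all arrays.

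The Raet1 genes encode stress-induced ligands of NKG2D, an activating receptor of NK cells, and had no probe set of a single gene. The probe set of Raet1d and Raet1e gave 2571 and 3796 in G9aΔHep liver against 908.5, called Absent, and 1825 in WT liver. Both G9aΔHep values were above both WT values (log2 fold change 1.28, SE 0.34, unadjusted p = 0.00791), and the probe set did not pass after adjustment (adjusted p = 0.327, log2 fold change 0.78 to 1.78 with 1 array left out).

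Other genes of the pathway were taken from lists, and none of their members passed at an adjusted p under 0.05 (limma). Of the immunoproteasome and its activator, which produce class I peptides, 4 of 6 genes were tested, 1 lower at an unadjusted p under 0.05 and 0 higher, with a median log2 fold change of −0.28. Psmb10, a catalytic subunit, gave 1144 and 945.1 in G9aΔHep liver against 1764 and 1758 in WT liver (log2 fold change −0.76, SE 0.16, unadjusted p = 0.00271, adjusted p = 0.175). Psmb9, another catalytic subunit, gave 1013 and 1532 in G9aΔHep liver against 978.7 and 678.8 in WT liver (log2 fold change 0.61, adjusted p = 0.532). Neither gene had overlapping groups, and the signs were opposite.

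Of the folding and trimming genes of the endoplasmic reticulum and cytosol, 9 of 10 were tested, 0 at an unadjusted p under 0.05, with a median of −0.02. The smallest p was that of Calr, the chaperone calreticulin, with 10757 and 12885 in G9aΔHep liver against 13988 and 14864 in WT liver (log2 fold change −0.29, adjusted p = 0.510), followed by Tpp2, a cytosolic peptidase, at −0.20 (adjusted p = 0.681). All 12 class II processing genes were tested, 0 at an unadjusted p under 0.05, with a median of 0.12. Ctss, the cathepsin that degrades the invariant chain, had 10219 and 6995 in G9aΔHep liver against 5990 and 6643 in WT liver (log2 fold change 0.42, adjusted p = 0.540), and Lgmn, an endosomal protease, was at 0.64 (adjusted p = 0.548). Ctss and Lgmn are expressed by macrophages too, and the highest value of each was on G9aΔHep array 1. Sppl2a, Ctsh, Ctsl and Marchf8 of this list were highest on other arrays.

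Of 19 regulators of MHC transcription 15 were tested, 1 lower and 0 higher at an unadjusted p under 0.05, with a median of −0.005. Rfx5, a subunit of the RFX complex that binds class II and class I promoters, gave 391.0 and 342.2 in G9aΔHep liver against 568.1 and 558.5 in WT liver. The groups did not overlap (log2 fold change −0.62, SE 0.18, unadjusted p = 0.0147, adjusted p = 0.355). Ifngr2, a chain of the interferon gamma receptor, gave 722.6 and 530.4 in G9aΔHep liver against 392.5 and 489.7 in WT liver (log2 fold change 0.50, adjusted p = 0.543).

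Because the H2 complex surrounds Ehmt2, the members were also read in their order along chromosome 17. Of the 22 tested members 15 lay within 50 tested genes of Ehmt2, 9 before it and 6 after it. H2-Q10 was 19 tested genes after Ehmt2 and H2-Q2 and H2-D1, with overlapping groups, were 18 and 17 after it. Tapbp, H2-K1 and H2-Ke6 were 33, 26 and 25 tested genes before it. Among all 100 neighbours 25 were lower and 21 higher without overlap. Among the 85 that were not members 21 were lower and 21 higher, with a median of −0.05. Over all genes 19.3% were lower and 22.3% higher in this sense. The 2 sides differed. Of the 50 tested genes before Ehmt2, 16 were lower and 6 higher without overlap, and of the 50 after it 9 were lower and 15 higher.

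Around Tapbp and H2-K1 no tested neighbour passed at an adjusted p under 0.05 (limma). From Zbtb22 to Rxrb, a stretch chosen after its values were seen, all 12 tested genes were below 0, 9 of them without overlap and 6 at an unadjusted p under 0.05, with log2 fold changes of −1.01 to −0.05 and a median of −0.42. Over all genes 19.3% were lower without overlap and 4.1% lower at an unadjusted p under 0.05. Besides Tapbp, H2-K1 and H2-Ke6 these were Zbtb22, Rgl2, Pfdn6, Wdr46, Rps18, Vps52, AA388235, Slc39a7 and Rxrb, which are not antigen presentation genes. In the next 9 tested genes, up to H2-Eb1, which hold 6 members, 0 were lower and 1 (Psmb9) was higher without overlap, with a median of 0.08. Whether the chromosome around the floxed allele differs between the groups in strain origin was not tested.

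**Figure D4:**
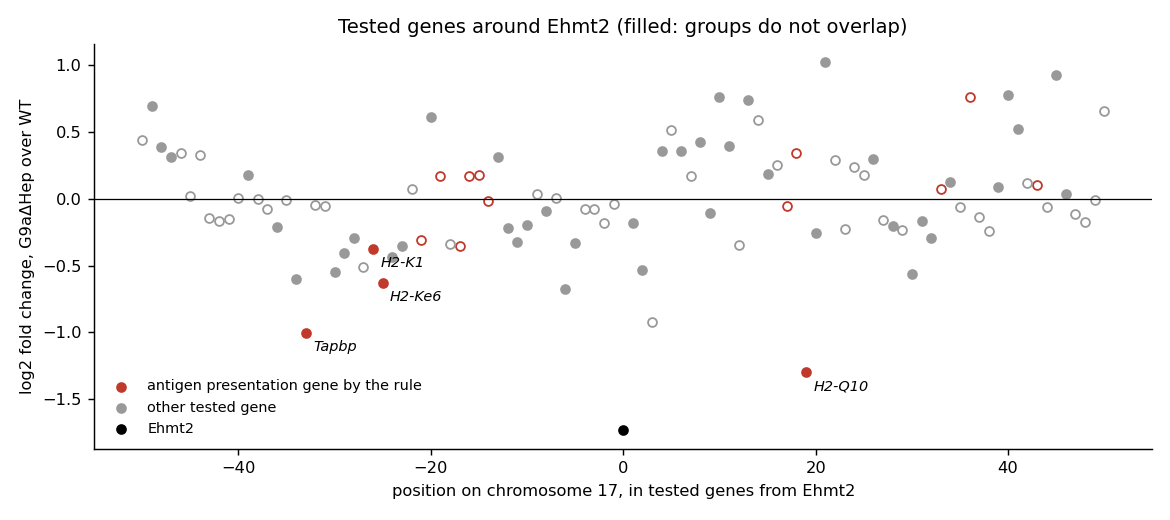
Log2 fold change (G9aΔHep over WT) of tested genes around Ehmt2, 50 before and 50 after it, by their order on chromosome 17 counted in tested genes; red points are antigen presentation genes by the rule, grey points other genes, the black point Ehmt2, and filled points mark groups that do not overlap. Tapbp, H2-K1 and H2-Ke6 lie among other genes below 0 at −34 to −23, and H2-Q10 lies at 19.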

How the data were processed

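Signal intensities and Present, Marginal or Absent calls with their detection p-values were deposited by the authors as MAS5 output, 1 value for each of 45101 probe sets on an array. MAS5 subtracts background, summarises the probes and scales each array, here to a 2% trimmed mean of 500.0. No source used here gives the MAS5 version. The deposited detection p-values were used only through the calls. The series table held the same intensities.

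From these, 64 control probe sets were left out and genes were named from GEO's platform annotation. Of 45037 probe sets, 34945 named 1 gene, 932 several and 9160 none. All 36 member symbols were found in the RefSeq table. For each gene 1 probe set was used, the one of highest mean log2 signal that named it alone and was Present on at least 2 arrays. Linear models were fitted to log2 signals of all 10350 genes with limma 3.58.1 in R 4.3.3 (lmFit, eBayes with a mean-variance trend, 2 residual and 4.02 prior degrees of freedom), G9aΔHep over WT, with Benjamini-Hochberg adjustment over all genes and a threshold of 0.05. Probe sets were fitted the same way over 19842. The method was tested on simulated data. Gene lists were described by counts and medians. The members, gene lists and tests were chosen with earlier results of these data known. Members at an unadjusted p under 0.05 and the main genes of each role were given by array, and of each other list the 2 genes with the smallest p. Gene order along chromosome 17 and promoters came from RefSeq (GRCm38.p6), where 22 of the 36 genes had a promoter. The number of arrays, 2 a group, limits the precision, and the trend and prior degrees of freedom enter each SE and p. Alternatives were other filters, probe set choices, scalings, tests and leaving out each array.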

Additional observations from a re-analysis of the deposited data

How the results depend on the processing

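The single lower call, H2-Q10, became 0 with no mean-variance trend and 0 with the methods' t-test (adjusted p = 0.167 and 0.491), settings under which 0 of all genes passed, and leaving out 1 array gave 0 to 1. It was lost without G9aΔHep array 1, WT array 1 or WT array 2. No setting called a member higher. The class I chain median of 0.08 was −0.10 with no detection filter, −0.052 for genes Present on all 4 arrays, 0.22 without probe sets ending in _x_at or _s_at, and −0.14 to 0.048 with 1 array left out. That of the class II genes ran from −0.55 to 0.70 with 1 array left out, and that of the loading genes from −0.13 to −0.03. H2-D1 changed sign to 0.069 with the mean of its probe sets, 0.039 after quantile normalization and 0.42 without _x_at and _s_at probe sets. With 1 array left out, signs changed in 9 genes: Cd1d1 (−0.46 to 0.049), Cd74 (−0.20 to 0.65), H2-Aa (−0.53 to 0.88), H2-Ab1 (−0.55 to 0.89), H2-D1 (−0.16 to 0.06), H2-DMa (−0.64 to 0.024), H2-Eb1 (−0.78 to 0.75), H2-M3 (−0.14 to 0.35) and H2-Ob (−0.33 to 0.48). The causes were not tested. Of 261 values of 19 named genes under the alternatives, 239 kept their direction and side of the threshold, 17 changed sign and 5, all of H2-Q10, lost the call. Median centring moved the median of all genes to −0.04 against 0.02, and the split at an unadjusted p under 0.05 to 466 higher and 630 lower against 613 and 424. No paired analysis was possible because the labels give no pairing of arrays. With 2 arrays a group and signals of Absent probe sets reaching 170.5 to 180.9 (95% quantile), signals near that level cannot be told from background.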

Other observations

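Genes that interferon gamma induces together with MHC genes did not move one way. Of 17 listed 12 were tested, 4 above 0 and 8 below, with a median log2 fold change of −0.11. At an unadjusted p under 0.05 there was 1 higher and 1 lower, and 0 passed after adjustment (limma). Igtp, an immunity-related GTPase, gave 1162 and 1384 in G9aΔHep liver against 2359 and 1573 in WT liver (log2 fold change −0.60, adjusted p = 0.467). Iigp1, another of the same family, gave 29786 and 24481 in G9aΔHep liver against 23176 and 18867 in WT liver (log2 fold change 0.37, adjusted p = 0.495). The groups did not overlap in either gene, and Ifng itself, like Cd274 and Ido1, was Absent on all 4 arrays.

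Class I-like genes with other roles differed little. Of 6 listed 3 were tested, with log2 fold changes of −0.08 to −0.03. Fcgrt, the neonatal Fc receptor that recycles IgG and albumin, gave 4036 and 4121 in G9aΔHep liver against 4264 and 4331 in WT liver (log2 fold change −0.07, adjusted p = 0.857). Hfe, which regulates iron uptake, gave 2965 and 2683 in G9aΔHep liver against 3016 and 2960 in WT liver (log2 fold change −0.08, adjusted p = 0.862).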
